A study of Homo sapiens with 12 samples.

Results

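Ferroptosis is decided by how fast a cell takes up cystine, makes glutathione, repairs peroxidized lipids, remodels its membranes and handles iron. This account covers the mRNAs of 10 genes of that machinery, SLC7A11, SLC3A2, GCLC, GCLM, GPX4, AIFM2, ACSL4, LPCAT3, TFRC and FTH1, out of 23710 genes counted, in RCC4 cells depleted of MESH1. The genes were chosen by symbol, and all 10 had counts in every library and passed the filter on low counts. RCC4 is an established line of clear cell renal carcinoma. Each well received 40 pmol of siRNA, and cells were collected after 72 h. There were 12 RNA-seq libraries in 2 experiments: siMESH1-CDS, a siRNA against the coding sequence of MESH1, with 3 libraries against 3 of non-targeting siRNA (siNT), and siMESH1-7002, against the 3'UTR, with 3 libraries against 3 siNT libraries of its own. The libraries are labelled biological replicates, and nothing else in the labels says how the cultures were separated. Because each siRNA was used in its own experiment, a difference between the siRNAs and a difference between the experiments cannot be told apart.

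As background, SLC7A11 and SLC3A2 form system xc-, which imports cystine in exchange for glutamate. Cystine is reduced to cysteine, and GCLC and GCLM, the catalytic and modifier subunits of glutamate-cysteine ligase, use it in the rate-limiting step of glutathione synthesis. GPX4, a selenoprotein, spends glutathione to reduce lipid hydroperoxides, and AIFM2 (FSP1) regenerates ubiquinol as a radical trap in parallel. ACSL4 and LPCAT3 load polyunsaturated fatty acids into phospholipids, the substrate of peroxidation, while TFRC brings in the iron that drives it and FTH1 stores that iron. MESH1, listed as HDDC3, is a cytosolic NADPH phosphatase, and the question was how the pathway's mRNAs stood when it was depleted.

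The siRNAs are shown because they define the groups. Each is written as the sense strand of its target, with the bases complementary to guide positions 2 to 8, the seed, in capitals.
siMESH1-CDS: gggaatcactgACATTGTg
siMESH1-7002: ctgaaggtctcctGCTAACTa
The siMESH1-CDS target lies in the coding part of exon 2 of 4 of HDDC3 (GRCh38, GENCODE 29, chr15:90932064-90932082, minus strand), and the siMESH1-7002 target in the 3'UTR in exon 4 (chr15:90931109-90931129, minus strand). HDDC3 was the only gene with a full match to either. A match to the seed alone was found in the 3'UTR of 13.1% of genes for siMESH1-CDS and 4.85% for siMESH1-7002. Among the 10 genes, SLC7A11 had such a match for siMESH1-CDS and GCLC had one for siMESH1-7002, each shown with its surroundings and the seed match in capitals.
SLC7A11 3'UTR: tgctatgagatACATTGTtttctccctatg
GCLC 3'UTR: aactgtaatatGCTAACTtgaagagattgc
A match of these letters is a description of the sequence and not evidence that the siRNA acts there.

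Libraries held 34063155 to 49134129 reads in genes in the siMESH1-CDS experiment and 24787804 to 31651125 in the siMESH1-7002 experiment. Levels are given in CPM, read counts scaled to the reads in genes of the library and its TMM factor. HDDC3 fell to 2.11% of siNT with siMESH1-CDS and to 10.4% with siMESH1-7002. The siMESH1-CDS value rests on 0 to 11 reads per library: its log2 fold change was -5.56, and -4.93 without siMESH1-CDS replicate 2, -6.66 without replicate 3 and -3.73 after the GC correction described below. Before that correction the depletion of HDDC3 was called different between the siRNAs, deeper with siMESH1-CDS (log2 difference -2.47, edgeR interaction test, adjusted p = 0.0037). After it the difference was not called (log2 difference -0.51, edgeR adjusted p = 0.325). The siMESH1-CDS libraries varied far more among themselves. Chi-square per degree of freedom between libraries of that group was 65.2 to 275, against 2.24 to 15.2 in the other groups, and replicate 3 stood apart from the others for several of the genes below. The siMESH1-CDS libraries also held fewer reads of GC-rich genes. Genes with at least 55% GC took 3.08% to 6.81% of reads there, against 17.6% to 19.3% in siNT, and 35.1% to 38.6% in all libraries of the siMESH1-7002 experiment. Of 8 markers of renal carcinoma epithelium, 6 exceeded 1 CPM in every library, KRT18 and KRT19 falling below that in siMESH1-CDS libraries. Of 7 markers of blood, endothelial and liver cells, 6 stayed under 1 CPM, and CD3E, EMCN and PECAM1 were at 0; CD68 was the exception, at 1.09 to 62.4 CPM in the siMESH1-CDS experiment and 104 to 146 CPM in the other.

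With siMESH1-CDS, SLC7A11, GCLC, GCLM and ACSL4 rose, SLC3A2, GPX4, AIFM2 and TFRC fell, and LPCAT3 and FTH1 did not pass the test. With siMESH1-7002, SLC7A11, GPX4, ACSL4 and FTH1 rose, SLC3A2, AIFM2 and LPCAT3 fell, and GCLC, GCLM and TFRC did not pass. Calls are at an adjusted p under 0.05 in edgeR's quasi-likelihood test, adjusted over all genes tested (Benjamini-Hochberg). The 4 genes higher and 4 lower with siMESH1-CDS stand against 36.9% and 37.2% of all 13395 genes tested, and the 4 higher and 3 lower with siMESH1-7002 against 26.6% and 26.7% of 13568. Groups did not overlap for 9 of the 10 genes with siMESH1-CDS (82.7% of all genes tested) and for 8 with siMESH1-7002 (59.5%). The median log2 fold change of the 10 genes was -0.51 with siMESH1-CDS, where that of all genes was -0.05, and -0.01 with siMESH1-7002, where it was 0.01. After GC correction the medians were 0.03 and 0.17 with siMESH1-CDS, and 0.0005 and 0.08 with siMESH1-7002. SLC7A11 and ACSL4 were called higher, and SLC3A2 and AIFM2 lower, with each siRNA, which compares with 30.7% of the 12824 genes tested in both experiments that were called alike. After GC correction SLC3A2 was called higher with siMESH1-CDS and AIFM2 was no longer called with siMESH1-7002, which left 2 of the 10, SLC7A11 and ACSL4, called alike, against 32.4% of genes. Without replicate 3 of siMESH1-CDS, all 10 genes were called with that siRNA, 4 higher and 6 lower. Most of all genes tested were called too when a library of that experiment was left out, with counts in the closing section. Scaling by library size alone moved the log2 fold changes of all genes by a median of -0.26 in the siMESH1-CDS experiment and turned the direction of none of the 10. These are bulk samples, in which fewer cells of a kind and less RNA per cell cannot be told apart.

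**Figure D1:**
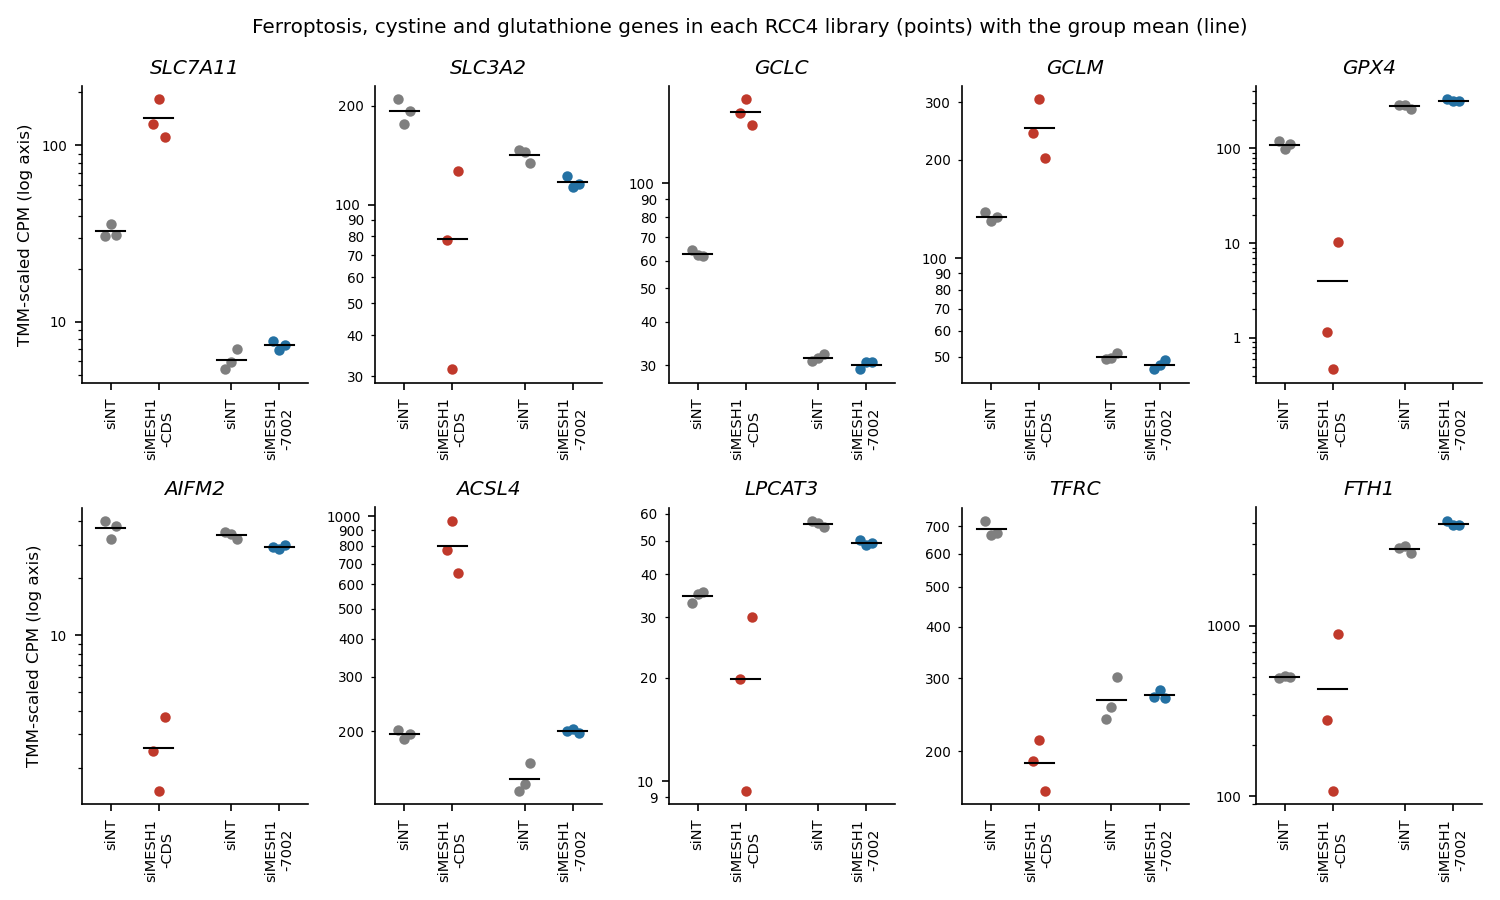
TMM-scaled CPM (log axis) of each gene in every library: points are libraries, the line is the mean of 3, grey is siNT and colour is siMESH1. With siMESH1-CDS the groups are separated for every gene but FTH1, GPX4 ranging from 0.468 to 10.3 CPM. With siMESH1-7002 they are separated for every gene but SLC7A11 and TFRC, by smaller changes than with siMESH1-CDS except for FTH1.

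Of the transporter pair for cystine, SLC7A11 was called higher and SLC3A2 lower with each siRNA, but SLC3A2 turned higher with siMESH1-CDS after GC correction. SLC7A11, the light chain that carries cystine (chr4:138164097-138242349, minus strand, GRCh38), had 30.9, 35.8 and 31.0 CPM in siNT replicates 1 to 3 and 133, 182 and 112 CPM in siMESH1-CDS replicates 1 to 3. Every siMESH1-CDS library lay above every siNT library, with replicate 2 the highest. The mean rose from 32.6 ± 2.82 to 142.5 ± 36.1 CPM (SD, n = 3 each), a log2 fold change of 2.13 (SE 0.202, edgeR adjusted p = 0.000472). GC correction left a log2 fold change of 1.24 (edgeR adjusted p = 3.66e-05). In the other experiment SLC7A11 had 5.39, 5.91 and 6.99 CPM with siNT and 7.84, 6.89 and 7.39 CPM with siMESH1-7002. The groups overlapped, since siNT replicate 3 lay above siMESH1-7002 replicate 2. The log2 fold change was 0.28 (SE 0.111, edgeR adjusted p = 0.0448), and the call was lost when any of 4 of the 6 libraries was left out, the largest adjusted p being 0.207 without siNT replicate 1.

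SLC3A2, the heavy chain that brings SLC7A11 to the membrane and serves other amino acid exchangers as well (chr11:62856102-62888875, plus strand), had 209, 176 and 192 CPM with siNT and 77.8, 31.5 and 126 CPM with siMESH1-CDS. All siMESH1-CDS libraries were below siNT, but they spread 4.02-fold among themselves. The mean went from 192 ± 16.6 to 78.6 ± 47.5 CPM (SD, n = 3 each), a log2 fold change of -1.29 (SE 0.470, edgeR adjusted p = 0.0452), and leaving out siMESH1-CDS replicate 1 or any siNT library took the adjusted p above the threshold, to 0.114 at most. After the correction for GC content described below, the value turned to 0.95 (edgeR adjusted p = 9.43e-05). With siMESH1-7002, SLC3A2 went from 146, 145 and 134 CPM to 122.5, 113 and 115 CPM. These groups were apart, and the log2 fold change was -0.27 (SE 0.0509, edgeR adjusted p = 0.000245), or -0.14 after GC correction with the call kept.

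Both subunits of glutamate-cysteine ligase rose with siMESH1-CDS. GCLC, the catalytic subunit (chr6:53497341-53616970, minus strand), had 64.4, 62.1 and 61.9 CPM with siNT and 159, 174 and 147 CPM with siMESH1-CDS, a log2 fold change of 1.35 (SE 0.0949, edgeR adjusted p = 0.000278). GCLM, the modifier subunit (chr1:93885205-93909456, minus strand), had 138, 130 and 133 CPM with siNT and 241.5, 305 and 202 CPM with siMESH1-CDS, a log2 fold change of 0.90 (SE 0.160, edgeR adjusted p = 0.00337). In each case all 3 siMESH1-CDS libraries were above all 3 siNT libraries. After GC correction GCLC kept a log2 fold change of 0.91 (adjusted p = 3.88e-05), whereas that of GCLM was 0.05 with a 95% interval of -0.07 to 0.17, no longer called. With siMESH1-7002, GCLC had 30.8, 31.6 and 32.4 CPM in siNT against 29.3, 30.7 and 30.6 CPM, and GCLM had 49.1, 49.5 and 51.1 CPM against 45.7, 47.1 and 48.9 CPM. The siMESH1-7002 libraries lay just below the siNT libraries for both genes, and neither passed the test. The 95% intervals of the log2 fold change were -0.19 to 0.06 for GCLC and -0.19 to 0.03 for GCLM. GCLM was called lower after GC correction, at -0.13 (edgeR adjusted p = 0.0182).

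Before GC correction, both repair enzymes had the lowest log2 fold changes of the 10 genes with siMESH1-CDS. After it TFRC was the lowest, at -2.58, followed by AIFM2 at -2.09 and GPX4 at -1.80. GPX4 (chr19:1103926-1106791, plus strand) had 118, 99.3 and 110 CPM with siNT and 1.17, 0.468 and 10.3 CPM in siMESH1-CDS replicates 1 to 3, the siMESH1-CDS values resting on 18 to 358 reads. Every siMESH1-CDS library was below siNT, and replicate 3 was the highest of them. The log2 fold change was -4.78 (SE 1.16, 95% interval -7.61 to -1.95, edgeR adjusted p = 0.0109), and -7.10 without replicate 3. GPX4 has the highest GC content of the 10 genes, 63.0%, and after GC correction its log2 fold change was -1.80 (95% interval -3.01 to -0.58, edgeR adjusted p = 0.0190). With siMESH1-7002 the direction was the opposite: 286, 286 and 263 CPM with siNT and 328, 314 and 316 CPM with siMESH1-7002. The groups did not overlap, the log2 fold change was 0.20 (SE 0.0455, edgeR adjusted p = 0.00142), and 0.34 after GC correction.

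AIFM2 (chr10:70098223-70132934, minus strand) had 40.1, 32.3 and 37.7 CPM with siNT and 2.44, 1.51 and 3.68 CPM with siMESH1-CDS. The siMESH1-CDS mean was 6.93% of siNT, with a log2 fold change of -3.85 (SE 0.362, edgeR adjusted p = 0.000463) that stayed called after GC correction at -2.09. In the siMESH1-7002 experiment AIFM2 had 35.1, 34.2 and 32.4 CPM with siNT and 29.1, 28.7 and 30.0 CPM with siMESH1-7002. All siMESH1-7002 libraries were lower, by a log2 fold change of -0.21 (SE 0.0607, edgeR adjusted p = 0.00720). After GC correction this was -0.09 and no longer called (adjusted p = 0.109).

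Of the lipid-loading enzymes, ACSL4 rose with each siRNA. ACSL4, which activates arachidonic and adrenic acid (chrX:109624244-109733403, minus strand), had 201, 188 and 196 CPM with siNT and 776, 964 and 655 CPM with siMESH1-CDS. The increase was 4.09-fold, with no overlap (log2 fold change 2.03, SE 0.157, edgeR adjusted p = 0.000312), and GC correction left a log2 fold change of 1.19. With siMESH1-7002 it went from 128, 135 and 157 CPM to 201, 203 and 197 CPM. Again the groups were apart, and the increase was 1.43-fold (log2 fold change 0.52, SE 0.0612, edgeR adjusted p = 2.22e-06), little moved by GC correction (0.48).

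LPCAT3, which esterifies those acyl chains into phospholipids (chr12:6976186-7018510, minus strand), did not follow ACSL4. It had 33.0, 34.9 and 35.6 CPM with siNT and 19.9, 9.39 and 30.1 CPM with siMESH1-CDS. The groups were apart, but the siMESH1-CDS libraries differed 3.20-fold among themselves, and the log2 fold change of -0.80 (95% interval -1.78 to 0.18) did not pass the test (edgeR adjusted p = 0.113), nor did the -0.15 after GC correction. Without replicate 3 of siMESH1-CDS it was -1.25 and called (edgeR adjusted p = 0.0118). With siMESH1-7002, LPCAT3 went from 57.1, 56.1 and 54.8 CPM to 50.3, 48.6 and 49.2 CPM. All siMESH1-7002 libraries were lower, with a log2 fold change of -0.18 (SE 0.0518, edgeR adjusted p = 0.00691), which after GC correction was -0.08 and not called (adjusted p = 0.0646).

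Of the iron genes, TFRC fell with siMESH1-CDS and FTH1 rose with siMESH1-7002. TFRC, the transferrin receptor (chr3:196027183-196082189, minus strand), had 720, 668 and 673 CPM with siNT and 189, 212.5 and 161 CPM with siMESH1-CDS. The siMESH1-CDS libraries were all far below siNT, at 27.3% of its mean, with a log2 fold change of -1.87 (SE 0.125, edgeR adjusted p = 0.000251). Of the 8 genes called with this siRNA, TFRC was the only 1 whose change grew with GC correction, to -2.58, and its transcript holds 41.5% GC. With siMESH1-7002 it had 240, 256 and 303 CPM with siNT against 270, 281 and 269 CPM. The groups overlapped and the log2 fold change was 0.04 (95% interval -0.10 to 0.18, edgeR adjusted p = 0.651), although it was 0.14 and called without siNT replicate 3 (adjusted p = 0.00117).

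FTH1, the ferritin heavy chain (chr11:61959718-61967660, minus strand), had 492, 504 and 501 CPM with siNT and 280, 108 and 896 CPM with siMESH1-CDS. No direction could be given: siMESH1-CDS replicate 3 lay above all siNT libraries and the other replicates below, so that the log2 fold change of -0.22 had a 95% interval of -1.94 to 1.49 (edgeR adjusted p = 0.783). Without replicate 3 it was -1.38 (adjusted p = 0.0172), and without replicate 2 it was 0.25. With siMESH1-7002, FTH1 went from 2841, 2926 and 2656 CPM to 4091, 3856 and 3866 CPM. Here the groups were well apart, with a 1.40-fold increase (log2 fold change 0.49, SE 0.0434, edgeR adjusted p = 7.27e-08). FTH1 has 25 named pseudogenes in GENCODE, and reads that align to more than 1 place were not counted, so its level is uncertain.

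TFRC and FTH1 mRNAs carry iron-responsive elements, hairpins that the iron regulatory proteins bind when iron is low; binding in a 3'UTR stabilizes the mRNA and binding in a 5'UTR blocks translation. The elements below were found by a rule (an unpaired c, a stem of 5 base pairs and a loop of CAGTGN, capitals marking the loop), in the transcripts of GENCODE 29. By this rule TFRC held 4 in its 3'UTR and FTH1 held 1 in its 5'UTR, and elements that depart from the rule were not counted. The rule was met in 0.564% of 3'UTRs and 0.115% of 5'UTRs of all genes.
TFRC 3'UTR, element 1: atcggaagCAGTGCcttccat
TFRC 3'UTR, element 2: atcgggagCAGTGTcttccat
TFRC 3'UTR, element 3: atcggagaCAGTGAtctccat
TFRC 3'UTR, element 4: atcgggaaCAGTGTttcccat
FTH1 5'UTR: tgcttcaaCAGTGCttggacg
The count tables hold mRNA only, so what FTH1 translation did was not measured.

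**Figure D2:**
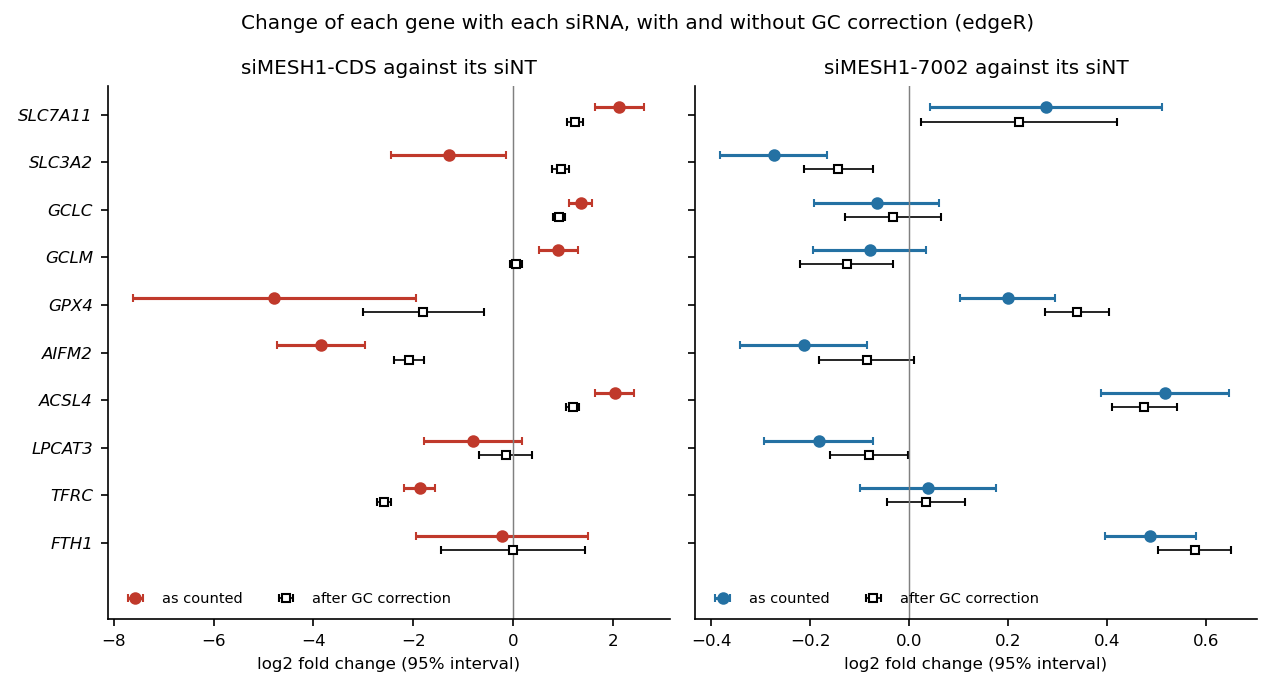
Log2 fold change of each gene against the siNT of the same experiment (filled points) and after GC correction (open squares), with 95% intervals; the horizontal scales differ between panels. SLC3A2 crosses 0 with siMESH1-CDS, from -1.29 to 0.95, while SLC7A11, GCLC and ACSL4 stay above 0 and GPX4, AIFM2 and TFRC below.

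The change differed between the siRNAs for 7 of the 10 genes, against 69.7% of all 14154 genes tested (edgeR, all 12 libraries, interaction of siRNA and experiment). The log2 change was larger with siMESH1-CDS than with siMESH1-7002 by 1.70 for SLC7A11 (adjusted p = 0.000155), by 1.26 for GCLC, by 0.83 for GCLM and by 1.36 for ACSL4. It was lower by a log2 difference of -5.13 for GPX4 (adjusted p = 0.00193), -3.79 for AIFM2 and -2.06 for TFRC. For SLC3A2, LPCAT3 and FTH1 the differences of -1.17, -0.77 and -0.86 did not pass, with 95% intervals of -2.29 to -0.04, -1.72 to 0.18 and -2.56 to 0.85. Without siMESH1-CDS replicate 3 these 3 were called too, at -1.63, -1.15 and -1.94, and without siMESH1-CDS replicate 2 SLC3A2 and LPCAT3 were, at -0.80 and -0.44. The share of all genes that differed in those fits is not reported here. After GC correction 7 of the 10 differed as well, against 61.4% of genes, with GCLM lost (log2 difference 0.10, adjusted p = 0.253) and SLC3A2 gained at a log2 difference of 1.17.

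The siMESH1-CDS changes followed the GC content of the transcripts. In 10 classes of equal size, the median log2 fold change of all genes ran from 1.10 in the class of lowest GC, which holds SLC7A11, GCLM and ACSL4, to -2.56 in the class of SLC3A2 and -3.70 in the highest, which holds GPX4. With siMESH1-7002 the same medians ran from 0.14 to -0.10. SLC7A11 and ACSL4 thus lay 1.03 and 0.93 above the median of their class with siMESH1-CDS, GCLM lay 0.20 below it, GPX4 1.08 below, AIFM2 2.21 below and TFRC 2.72 below. SLC3A2 fell by less than its class, by 1.27 on the log2 scale. A correction that removes a smooth trend on GC content from each library left 7 of the 10 genes called with siMESH1-CDS, 4 higher (SLC7A11, SLC3A2, GCLC and ACSL4) and 3 lower (GPX4, AIFM2 and TFRC), where 40.7% of genes were higher and 26.8% lower. With siMESH1-7002, where 39.9% were higher and 24% lower, it left SLC7A11, GPX4, ACSL4 and FTH1 higher and SLC3A2 and GCLM lower. The intervals after correction leave out the error of the smooth itself. Within lane 4 and lane 6, each with 1 library of each group of the siMESH1-CDS experiment, the log2 differences had the same sign as the whole for 9 genes, for example 1.86 and 2.10 for SLC7A11, -3.52 and -6.56 for GPX4 and -2.16 and -1.83 for TFRC. FTH1 was the exception, at 0.86 and -0.84.

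**Figure D3:**
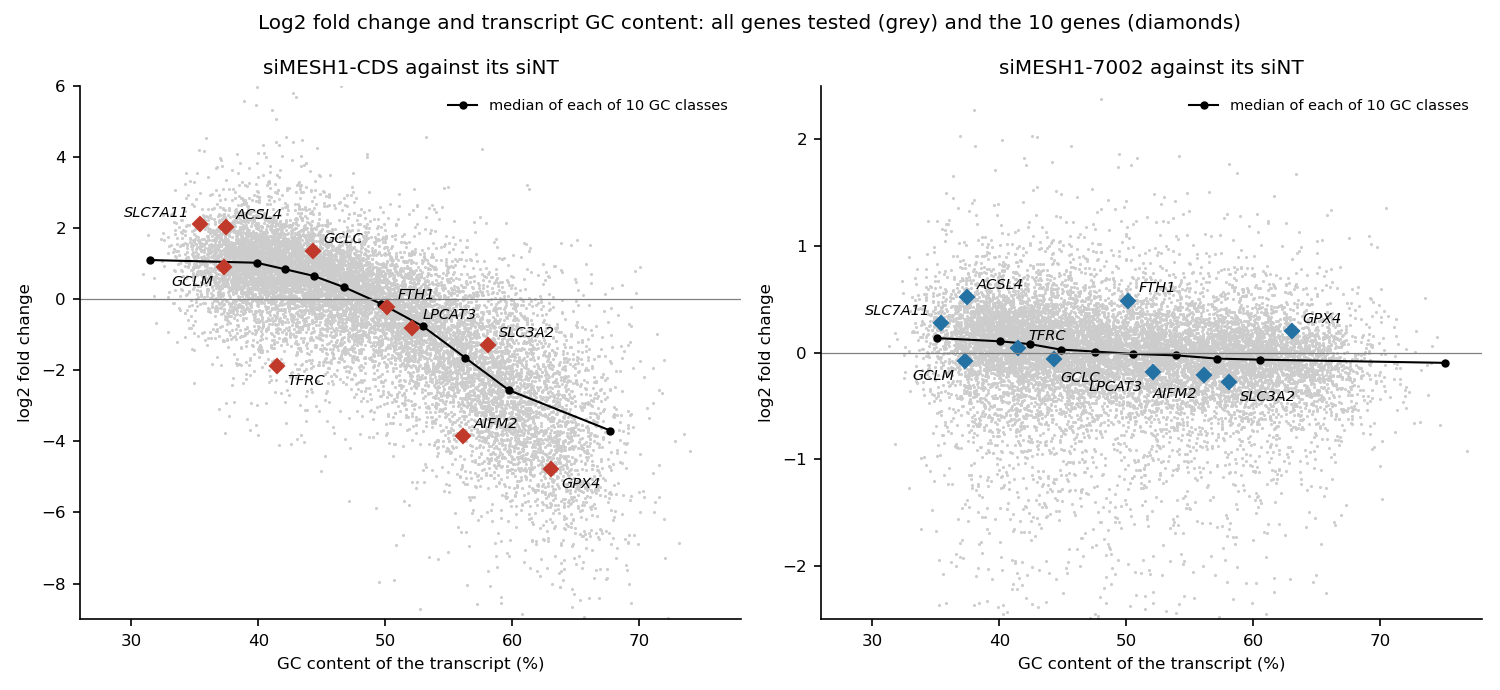
Log2 fold change (vertical axis) against GC content of the transcript in percent (horizontal axis) for all genes tested (grey), with the median of each of 10 GC classes (line) and the 10 genes (diamonds). With siMESH1-CDS the medians fall from 1.10 to -3.70, TFRC and AIFM2 lying well below the line and SLC7A11, ACSL4 and SLC3A2 above it; with siMESH1-7002 the line is nearly flat.

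Ratios of reads of paired genes within a library do not depend on how libraries are scaled, but they do carry the trend on GC content where the pair differs in it. Beside each ratio stands the difference of the GC-corrected log2 fold changes of the pair. For each ratio, 3 libraries against 3 cannot give an exact two-sided permutation p under 0.1, and 10 ratios were compared. SLC7A11 gave 0.148, 0.204 and 0.161 reads per read of SLC3A2 with siNT and 1.71, 5.79 and 0.886 with siMESH1-CDS, and 0.0369, 0.0409 and 0.0522 with siNT against 0.0640, 0.0608 and 0.0641 with siMESH1-7002. The light chain was higher relative to the heavy chain with each siRNA, without overlap (log2 difference 3.61 and 0.55, exact permutation p = 0.1 and adjusted p = 0.125 each). After GC correction these log2 differences were 0.29 and 0.37. ACSL4 was higher relative to LPCAT3 in the same way, from between 5.40 and 6.11 to between 21.8 and 103 with siMESH1-CDS, and from between 2.24 and 2.87 to between 3.99 and 4.18 with siMESH1-7002. The log2 differences were 2.97 and 0.70, and 1.34 and 0.56 after GC correction. GPX4 against AIFM2 had 2.95, 3.07 and 2.93 with siNT and 0.481, 0.310 and 2.80 with siMESH1-CDS, so that replicate 3 lay close to siNT. The log2 difference of -1.998 was -2.95 without that replicate and turned to 0.29 after GC correction. With siMESH1-7002 it was 0.41, and 0.43 after GC correction. GCLC against GCLM was higher with siMESH1-CDS by 0.47 on the log2 scale, or 0.86 after GC correction. With siMESH1-7002 it differed by 0.01 (exact permutation p = 0.5), or 0.09 after GC correction. TFRC against FTH1 overlapped with siMESH1-CDS (exact permutation p = 0.4) and was lower without overlap with siMESH1-7002, from between 0.0843 and 0.114 to between 0.0660 and 0.0728. Its log2 differences were -1.15 with siMESH1-CDS and -0.44 with siMESH1-7002, and -2.58 and -0.54 after GC correction.

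**Figure D4:**
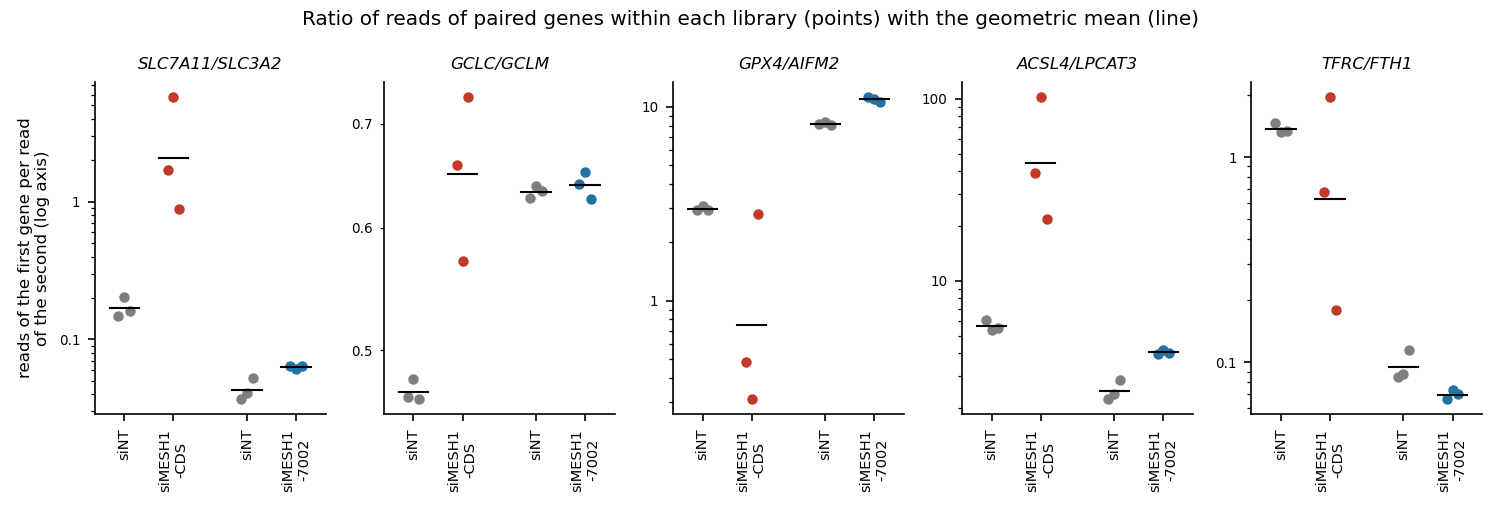
Reads of the first gene per read of the second in every library (log axis), with the geometric mean as a line. SLC7A11/SLC3A2 and ACSL4/LPCAT3 are higher in all siMESH1 libraries of each experiment, whereas the siMESH1-CDS libraries of TFRC/FTH1 spread from 0.179 to 1.97. The ratios are not corrected for GC content.

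Levels were compared between genes per length of transcript (CPM per kilobase). In the siNT libraries FTH1 was the most abundant of the 10 in each experiment, at 406 ± 5.15 and 2285 ± 112 CPM per kilobase (SD, n = 3 each), and SLC7A11 the least, at 3.38 ± 0.293 and 0.632 ± 0.0845. In the siMESH1-CDS experiment the order was FTH1, TFRC, GPX4, SLC3A2, ACSL4, GCLM, GCLC, LPCAT3, AIFM2 and SLC7A11, with no overlap of neighbours. In the siMESH1-7002 experiment it was FTH1, GPX4, SLC3A2, TFRC, ACSL4, LPCAT3, AIFM2, GCLM, GCLC and SLC7A11, where ACSL4 and LPCAT3, and AIFM2 and GCLM, overlapped. The siNT libraries differed between the experiments: per kilobase, they had 5.34 times as much SLC7A11, 2.68 times as much GCLM and 2.58 times as much TFRC in the siMESH1-CDS experiment, and 5.63 times as much FTH1 and 2.55 times as much GPX4 in the siMESH1-7002 experiment. The experiments were scaled separately, and their siNT libraries also differed in the share of reads from genes with at least 55% GC (17.6% to 19.3% against 35.1% to 38.6%), so these ratios are descriptions of libraries. With siMESH1-CDS, ACSL4 moved from the fifth to the second place and GPX4 from the third to the ninth, whereas with siMESH1-7002 only AIFM2 and GCLM changed places. These places are not corrected for GC content. With siMESH1-CDS the GC classes of ACSL4 and GPX4 had median log2 fold changes of 1.10 and -3.70.

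Promoters were searched because GCLC, GCLM, SLC7A11 and SLC3A2 are known targets of NRF2 or ATF4. RefSeq windows of 300 bases (GRCh38.p14, 250 before to 50 after the start) were matched on both strands to the core of the antioxidant response element, TGACNNNGC, and to the amino acid response element, TGATGNAAN. The former was found in 3 of 12 windows of the 10 genes and in 13.3% of all 35116 windows, and the latter in 1 of 12 and in 3.61%. The 4 matches follow, with the motif in capitals.
GCLM, antioxidant response element: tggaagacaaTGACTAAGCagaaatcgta
AIFM2, antioxidant response element: gggcggggcgTGACTCAGCactcgtgctg
SLC3A2, antioxidant response element: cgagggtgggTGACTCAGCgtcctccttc
SLC3A2, amino acid response element: ggagcTGATGTAAGgagtcctgca
Of the genes with a match, GCLM rose and AIFM2 and SLC3A2 fell with siMESH1-CDS, GCLM falling out of the calls and SLC3A2 turning higher after GC correction. With siMESH1-7002 AIFM2 and SLC3A2 fell, and GCLM did not pass the test (log2 fold change -0.08). After GC correction with that siRNA, GCLM was called lower, SLC3A2 stayed lower and AIFM2 lost its call.

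The other genes of the pathway numbered 77, in 4 lists. With siMESH1-CDS 24 of the 69 tested were higher (34.8%) and 28 lower (40.6%), against 36.9% and 37.2% of all genes, and with siMESH1-7002 19 of 68 were higher (27.9%) and 29 lower (42.6%), against 26.6% and 26.7%. Their median log2 fold changes were -0.0034 and -0.016. After GC correction 25 were higher and 23 lower with siMESH1-CDS, and 27 higher (39.7%) and 26 lower (38.2%) with siMESH1-7002, against 39.9% and 24% of all genes. Both siRNAs had 11 of them higher and 17 lower, 41.2% of 68 against 30.7% of all genes, and 13 higher and 14 lower after GC correction, 39.7% against 32.4%. The genes named are those that both siRNAs moved alike past the test with groups apart, at most 3 per list and direction.

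Of 15 cystine and glutathione genes tested, 3 rose and 9 fell with siMESH1-CDS, and 4 rose and 9 fell with siMESH1-7002. After GC correction these counts were 4 and 5 with siMESH1-CDS and 6 and 7 with siMESH1-7002. CTH, which makes cysteine from cystathionine, rose from 8.16 ± 0.403 to 34.6 ± 0.954 CPM with siMESH1-CDS and from 6.23 ± 0.209 to 8.33 ± 1.02 with siMESH1-7002 (SD, n = 3 each, edgeR adjusted p = 0.000229 and 0.00303). TXNRD1, thioredoxin reductase, a selenoprotein and a classical NRF2 target, rose 4.16-fold and 1.20-fold. With siMESH1-CDS these stayed called after GC correction, at log2 fold changes of 1.48 and 1.54. SLC7A5, the amino acid exchanger that shares the SLC3A2 heavy chain, had 248 ± 17.9 CPM with siNT and 76.9 ± 1.63 with siMESH1-7002 (fold change -1.69 on the log2 scale, edgeR adjusted p = 3.49e-13). With siMESH1-CDS it fell by 1.74 on the log2 scale, a value that turned to 1.40 after GC correction. SLC1A4, a neutral amino acid transporter, and CHAC2, a glutathione-degrading enzyme, fell with each siRNA, by log2 fold changes of -1.38 and -0.85 with siMESH1-CDS and -0.90 and -0.90 with siMESH1-7002. With siMESH1-CDS these were -0.52 and -1.73 after GC correction.

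Of 18 genes of lipid peroxide repair and selenoprotein synthesis, 8 rose and 5 fell with siMESH1-CDS, and 5 rose and 8 fell with siMESH1-7002. After GC correction these counts were 8 and 7, and 5 and 6. LRP8, a receptor through which cells take up selenoprotein P and so supply selenium for GPX4, fell with each siRNA, from 204 ± 22.4 to 35.5 ± 1.85 CPM with siMESH1-CDS and from 24.8 ± 0.470 to 7.02 ± 0.581 CPM with siMESH1-7002 (edgeR adjusted p = 0.000178 and 9.10e-12). Its log2 fold change of -2.53 with siMESH1-CDS was -2.60 after GC correction. SECISBP2, which binds the selenocysteine insertion element, rose 2.03-fold and 1.30-fold. In sterol synthesis, SC5D, which makes 7-dehydrocholesterol, a trap of lipid radicals, rose 2.27-fold and 1.36-fold, while DHCR7, which consumes it, fell to 0.109 and 0.714 of siNT. With siMESH1-CDS their log2 fold changes of 1.18 and -3.20 were 0.35 and -1.004 after GC correction, both still called. NQO1 rose 1.29-fold and 1.27-fold, the former losing its call after GC correction and with library size scaling, and DHODH, a mitochondrial ubiquinone reductase, fell to 0.450 and 0.822 of siNT, the latter losing its call after GC correction (edgeR adjusted p = 0.0667) and the former moving from a log2 fold change of -1.15 to -0.53.

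Of 18 genes of lipid remodelling and oxidation tested with siMESH1-CDS, 5 rose and 6 fell, and of 17 with siMESH1-7002, 5 rose and 7 fell. After GC correction 6 were higher and 8 lower, and 7 higher and 8 lower. SAT1, the polyamine acetyltransferase that p53 induces, rose from 92.3 ± 9.93 to 292 ± 17.2 CPM and from 58.8 ± 1.02 to 116 ± 1.54 CPM (edgeR adjusted p = 0.000251 and 3.65e-11). The desaturases that make polyunsaturated fatty acids fell with each siRNA. FADS1 went to 0.473 and 0.846 of siNT, and FADS2 to 0.0450 and 0.769. With siMESH1-CDS the log2 fold change of FADS2 went from -4.47 to -1.96 after GC correction, and that of FADS1 from -1.08 to -0.73, both still called. MBOAT1, a phospholipid acyltransferase, fell to 0.368 and 0.666 of siNT. ALOX12, ALOX15 and ALOX15B, lipoxygenases that peroxidize membrane lipids, were too low to be tested in either experiment.

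Of 18 iron genes tested, 8 rose and 8 fell with siMESH1-CDS, and 5 rose and 5 fell with siMESH1-7002. After GC correction 7 were higher and 3 lower with siMESH1-CDS, and 9 higher and 5 lower with siMESH1-7002. SLC40A1, ferroportin, the iron exporter, rose from 1.02 ± 0.167 to 8.94 ± 2.35 CPM with siMESH1-CDS and from 6.32 ± 0.931 to 12.8 ± 0.463 CPM with siMESH1-7002 (edgeR adjusted p = 0.000444 and 3.15e-07). NCOA4, the receptor that carries ferritin to the lysosome, rose 3.73-fold and 1.19-fold, and SLC11A2, which moves iron across membranes, rose 2.06-fold and 1.52-fold. All 3 stayed called after GC correction, SLC40A1 moving from 3.14 to 2.499 on the log2 scale with siMESH1-CDS. SLC39A14, which imports iron not bound to transferrin, fell to 0.713 and 0.648 of siNT. HMOX1, which frees iron from haem, fell to 0.208 and 0.672 of siNT, and STEAP3, a ferrireductase, to 0.576 and 0.873, but with siMESH1-CDS the log2 fold changes of these were 0.06 and 1.22 after GC correction, and with siMESH1-7002 STEAP3 lost its call (edgeR adjusted p = 0.0574). FTL, the ferritin light chain, was added after its values were seen: like FTH1 it rose with siMESH1-7002, by 0.66 on the log2 scale (edgeR adjusted p = 1.025e-09). With siMESH1-CDS it fell by 2.51 on the log2 scale, and GC correction left -0.96 (edgeR adjusted p = 0.0470).

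**Figure D5:**
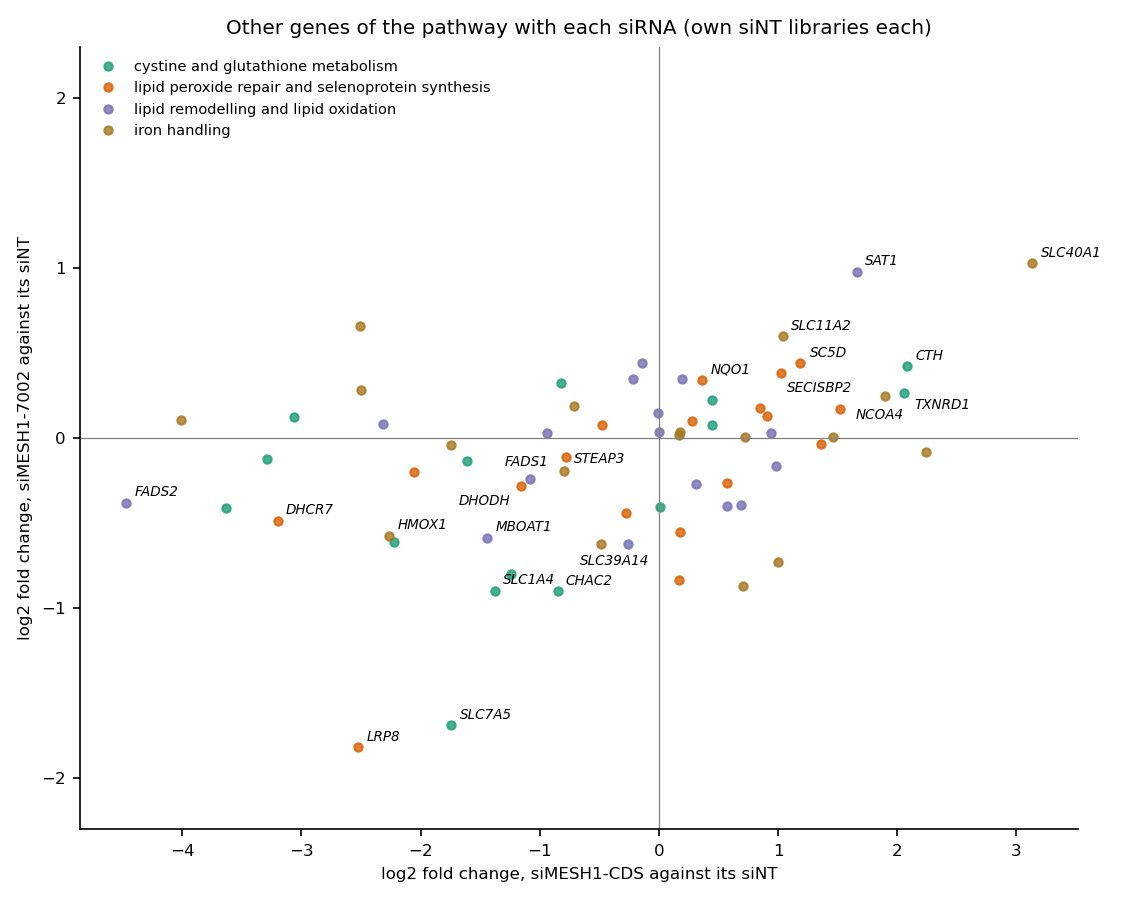
Log2 fold change with siMESH1-CDS (horizontal) and with siMESH1-7002 (vertical) of the other pathway genes tested in both experiments, coloured by list; each siRNA has its own siNT libraries. SLC40A1 and SAT1 lie far up on the right, at 3.14 and 1.03 and at 1.66 and 0.98, and LRP8 and SLC7A5 far down on the left.

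The genes whose levels followed SLC7A11 and GPX4 most closely were found by the root mean square distance of log2 CPM from the siNT mean of the same experiment, over 12 libraries and 12824 genes. For SLC7A11 they were ESCO1, CHMP2B and ZNF480, at 0.0646, 0.0649 and 0.0709 on the log2 scale, and their transcripts held 35.4% to 37.5% GC, close to the 35.4% of SLC7A11. For GPX4 they were CTSD, TUBA4A and COL7A1, at 0.158, 0.183 and 0.207, with 64.0%, 56.3% and 64.8% GC beside the 63.0% of GPX4.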

How the data were processed

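The authors deposited whole-number counts of reads per gene for 12 libraries of poly(A) RNA (a stranded mRNA kit). The submitters' processing notes name FastQC, HISAT2, HTSeq, DESeq2 and the hg19 build; versions are not given in the sources used here. Rows that name no gene, 38.9% to 49.3% of reads, stayed out of library sizes. The 2 deposited tables of the authors' DESeq2 comparisons were not used. The main test was edgeR 4.0.16 run in R 4.3.3 (filterByExpr, TMM, glmQLFit, glmQLFTest), separately in each experiment, with Benjamini-Hochberg adjustment over all genes tested, and as an interaction over all 12 libraries. CPM are TMM-scaled. The GC correction gives edgeR an offset, library by library, from a lowess curve (span 0.3) of log2 CPM (with 1 added as prior) against the GC content of a GENCODE 29 transcript; 22355 of 23710 symbols had a transcript. Positions come from GRCh38, another build than the counts. DESeq2 1.42.0, other scalings, filters and thresholds, a replicate block, lane, 1 model of all groups and leaving out each library were alternatives; GC correction of the interaction and of genes outside the 10 was added after seeing the data. The genes and lists were chosen with earlier results of these data known. Pathway genes were named when both siRNAs moved them alike past the test, with groups apart and a mean of at least 1 CPM, at most 3 per list and direction by the smaller change. Python 3.11.15, scipy 1.17.1 and matplotlib 3.10.9 made the other values and figures. Depth covers counting error only.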

Additional observations from a re-analysis of the deposited data

Results flagged for a closer look

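Among the 10 genes and the pathway genes named by the rule, the change differed between the siRNAs for the following. The test was edgeR's interaction over 12 libraries, at an adjusted p under 0.05. Pathway genes outside that rule are not listed, although some passed the same test, such as IREB2 at 2.175 and FTL at -3.314. All values are the log2 change with siMESH1-CDS minus that with siMESH1-7002, and 69.7% of all genes tested differed in this way. Among the 10 genes, the difference was 1.70 for SLC7A11, 1.26 for GCLC, 0.83 for GCLM, -5.13 for GPX4, -3.79 for AIFM2, 1.36 for ACSL4 and -2.06 for TFRC. Among the cystine and glutathione genes it was -0.63 for SLC1A4, 1.64 for TXNRD1 and 1.51 for CTH. In lipid peroxide repair it was -1.02 for DHODH, 0.49 for SECISBP2, -0.86 for LRP8 and -2.86 for DHCR7. In lipid remodelling it was -0.99 for FADS1, -4.24 for FADS2, -1.01 for MBOAT1 and 0.53 for SAT1. Among the iron genes it was 1.50 for NCOA4, 1.97 for SLC40A1, 0.29 for SLC11A2, -0.75 for STEAP3 and -1.84 for HMOX1. After GC correction the difference was called for 6 of the 7 named among the 10, GCLM at 0.10 being lost, and for SLC3A2, at 1.17. For the pathway genes the corrected difference is not reported here. Their GC-corrected log2 fold changes with siMESH1-CDS and siMESH1-7002 were 1.22 and -0.07 for STEAP3 and 0.06 and -0.44 for HMOX1. They were 0.50 and 0.62 for SLC11A2 and -0.52 and -0.79 for SLC1A4. In these genes the order of the siRNAs was reversed, and the other pathway genes listed kept it. The siRNA and the experiment cannot be told apart in these differences.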

How the results depend on the processing

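With 1 library left out, 7 to 10 of the 10 genes were called with siMESH1-CDS (4 higher throughout, 3 to 6 lower) and 6 to 8 with siMESH1-7002 (3 to 5 higher, 3 lower throughout). The change differed between the siRNAs for 7 to 10, where the share of all genes is not reported here (69.7% with every library). In the same fits 43 to 58 other pathway genes and 8200 to 11097 of all genes were called with siMESH1-CDS, and 41 to 51 and 6264 to 8372 with siMESH1-7002, against 52, 9926, 48 and 7235 with every library. Asking for an adjusted p under 0.01 left 6 of the 10 genes called with siMESH1-CDS, 4 higher and 2 lower. The share of all genes at that threshold is not reported here. In 1 model of 4 groups, which takes 1 spread per gene from all 12 libraries, siMESH1-7002 kept 1 of the 10 genes (ACSL4, so 1 higher and 0 lower), 21 pathway genes and 2582 of all genes. Asking also for an absolute log2 fold change of at least 0.5 kept 1 of the 10 (ACSL4 again, 1 higher and 0 lower), 18 and 2376. With siMESH1-CDS, GC correction turned the log2 fold change of SLC3A2 to 0.953 (0.951 with the replicate block), SLC7A5 to 1.396 (1.367), STEAP3 to 1.22 (1.177) and HMOX1 to 0.056 (0.056), and it turned the difference between the siRNAs for SLC3A2 to 1.167. For FTH1 with siMESH1-CDS lane as a factor gave 0.012, and leaving out libraries gave -1.38 to 0.254. For TFRC with siMESH1-7002 leaving out libraries gave -0.036 to 0.142. SLC7A11 with siMESH1-7002 was also not called by DESeq2 (adjusted p = 0.0968), with library size scaling (edgeR adjusted p = 0.0560) or with at least 10 counts in every library (0.0539). The cause was not tested. DESeq2 gave no adjusted p for GPX4 with siMESH1-CDS.

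The labels number the replicates and do not say that the numbers pair the samples, so they were not taken to do so. In their deviations from the group means, same-numbered libraries correlated at -0.0539 to 0.238 with siMESH1-CDS and -0.0786 to 0.0414 with siMESH1-7002. Differently numbered libraries correlated at -0.276 to 0.178 and -0.0869 to 0.148. With 3 libraries per group these values cannot settle whether the samples were paired. With the replicate block, 8 of the 10 genes were called with siMESH1-CDS (9273 of all genes) and 6 with siMESH1-7002 (6972). With siMESH1-7002 SLC7A11 was lost at a log2 fold change of 0.28 (edgeR adjusted p = 0.0606). Between the siRNAs 8 differed, SLC3A2 joining at -1.38, and the share of all genes in that fit is not reported here.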
